A study of Mus musculus with 18 samples.

Results

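The genes described here are enzymes of cholesterol synthesis, together with Insig1, which is a brake on that synthesis and not an enzyme. They were chosen as the probes annotated to 8 named genes, Hmgcs1, Mvd, Idi1, Fdps, Fdft1, Sqle, Lss and Insig1, on Illumina MouseWG-6 bead arrays. The annotation used here named 14 probes for 6 of the 8 genes, and 11 of these probes were detected on at least 3 arrays. Those 6 genes are part of 11921 genes tested. Hmgcs1 and Fdft1 had no probe named for them and were not analysed here.

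All cells were skeletal muscle myoblasts with loxP-flanked Gata4 alleles (strain Gata4tm1.1Sad/J), and every group was infected with a virus. KO cells received an adenovirus with Cre recombinase, OE cells a retrovirus with GATA4, and Wt cells an adenovirus with nuclear beta-galactosidase, so that OE and Wt differ in the kind of virus as well as in its cargo. Day 3 cells had spent 3 days in differentiation medium (DMEM) and day 0 cells were in growth medium (Ham's/F10 with bFGF), which also held more serum than the differentiation medium, so that day and serum cannot be told apart. There were 18 arrays in 6 groups of 3, KO, OE and Wt at day 3 and at day 0. The labels do not say whether replicates were separate cultures or animals, and the p-values below therefore speak of the spread of these arrays, part or all of which may be technical.

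Cells build cholesterol from acetyl-CoA through mevalonate. Mevalonate is turned into isoprenoid units, which also feed the prenylation of proteins and the making of ubiquinone and dolichol, and the committed branch to sterols passes through squalene, lanosterol and a long series of steps to cholesterol. The SREBP transcription factors switch these genes on together when membranes hold little sterol, and the INSIG proteins keep the SREBP escort protein SCAP in the endoplasmic reticulum when sterol is plentiful. Dividing cells need sterol for new membrane, and in muscle the pathway is best known as the target of statins, whose side effects include muscle injury.

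The arrays did not follow their labels in muscle state, which bears on every comparison. Ckm, the muscle creatine kinase, read 10.87 to 11.39 log2 intensity on 9 arrays and 6.78 to 8.05 on the other 9, and 6 arrays went against their day. At day 0 the first KO array, the second OE array and the first Wt array read high. At day 3 OE replicates 2 and 3, as well as Wt replicate 2, read low. Of the 11 measured contractile markers other than Ckm, the 9 detected on all 18 arrays lay higher on the high-Ckm arrays without overlap (their means 12.27 to 12.71, against 9.99 to 10.59), and all 7 measured markers of dividing cells lay lower (6.4 to 6.86, against 9.5 to 9.86). Of all genes, 10.2% lay wholly higher there and 9.95% wholly lower. Usp18, an interferon-induced gene, separated the arrays further, reading 12.4 to 12.52 on 3 low-Ckm arrays (KO replicates 2 and 3 of day 0, and Wt replicate 2 of day 3), 9.72 to 9.94 on 3 high-Ckm arrays (the second OE array of day 0 and the first Wt array of each day) and 4.27 to 5.43 on the other 12. The arrays fell into 6 sets of 3 mutually closest arrays, with a correlation of at least 0.9849 within a set. All 6 sets held more than 1 labelled group. The 3 low-Ckm arrays with high Usp18 formed a set of their own, as did the 3 high-Ckm arrays with high Usp18. Usp18 level and set therefore cannot be told apart. The single Gata4 probe was detected on 5 of 18 arrays and does not check the labels, so groups are called by their label. High-Ckm and low-Ckm arrays are a split made from the data and not a group of the study, so they are given by range and median with no test.

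Promoters are shown for Mvd and Lss, the members whose levels moved most closely with the other members, and for Insig1, which had the lowest correlation with them. Sequences are RefSeq promoters of build GRCm38.p6, reading from 250 bases before the annotated start to 50 after it, 5′ to 3′ on the strand of the gene, with capitals for CCAAT and its reverse complement ATTGG, the letters that the factor NF-Y binds. The promoters lie at chr8:122443373-122443672 (minus strand, Mvd), chr10:76531355-76531654 (plus strand, Lss) and chr5:28071162-28071461 (plus strand, Insig1).
Mvd: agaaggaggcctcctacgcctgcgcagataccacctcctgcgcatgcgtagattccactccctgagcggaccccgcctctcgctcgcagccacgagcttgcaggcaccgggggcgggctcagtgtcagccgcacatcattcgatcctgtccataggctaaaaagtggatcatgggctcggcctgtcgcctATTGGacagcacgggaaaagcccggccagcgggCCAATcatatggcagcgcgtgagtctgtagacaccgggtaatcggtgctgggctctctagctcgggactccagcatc
Lss: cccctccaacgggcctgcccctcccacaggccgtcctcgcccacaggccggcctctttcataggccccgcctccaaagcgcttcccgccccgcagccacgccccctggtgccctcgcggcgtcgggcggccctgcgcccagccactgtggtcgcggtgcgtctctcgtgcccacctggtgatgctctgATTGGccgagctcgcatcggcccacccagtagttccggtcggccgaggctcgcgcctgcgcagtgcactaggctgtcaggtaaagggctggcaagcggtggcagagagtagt
Insig1: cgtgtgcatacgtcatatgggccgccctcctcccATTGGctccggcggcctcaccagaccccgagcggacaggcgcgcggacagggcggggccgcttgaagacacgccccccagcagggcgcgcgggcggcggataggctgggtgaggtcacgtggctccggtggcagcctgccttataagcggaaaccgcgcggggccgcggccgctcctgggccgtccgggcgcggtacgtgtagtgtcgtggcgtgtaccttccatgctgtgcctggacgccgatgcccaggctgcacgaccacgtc
Mvd held 2 such sites, and Lss and Insig1 held 1 each; of 32851 promoters of this length in the table, 37.4% held at least 1. The letters TCACNCCAC, searched on both strands as a form of the sterol regulatory element, occurred in none of these 3 windows nor in that of Idi1, occurred once in that of Hmgcs1, and occurred in 1.24% of all promoters. The GC box GGGCGG, the letters bound by Sp1, occurred 1 time in the Mvd window, 2 times in Lss and 3 times in Insig1, and in 35.7% of all promoters. The E-box CACGTG occurred in Insig1 alone of the 3, and in 7.15% of all promoters. No site in these windows overlapped another. A match describes letters only, and the lack of one says nothing about binding of the factor. Promoters of Fdps and Sqle are not shown.

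Over the 18 arrays the 6 genes spanned very different widths. Fdps varied by a range of 6.16-fold, Mvd 3.18-fold, Insig1 2.53-fold, Lss 2.1-fold and Sqle 1.76-fold from the lowest to the highest array. Idi1 was not above background on its lowest array, so it has no such fold. Across high-Ckm against low-Ckm arrays, 5 of the 6 genes had the higher median on the muscle-rich arrays, with a median difference of 0.26 on the log2 scale, against -0.01 over all genes tested, of which 48.8% were higher. For Sqle, counted among the 5, the difference was 0.03 only. None of the 6 was separated from the low-Ckm arrays without overlap, whereas 10.2% of all genes lay wholly higher and 9.95% wholly lower. The sign of each gene's difference was the same under 5 ways of scaling the arrays. Within the 5 labelled groups that held both kinds of array, Fdps and Mvd were higher on the high-Ckm arrays than on the low-Ckm arrays in 5 of 5, as were 15.7% of all genes, with 16.3% lower in all 5. Idi1 did so in 4 of 5 groups, Sqle and Lss in 3 and Insig1 in 1. In bulk RNA, fewer cells of a type and less RNA per cell cannot be told apart.

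**Figure D1:**
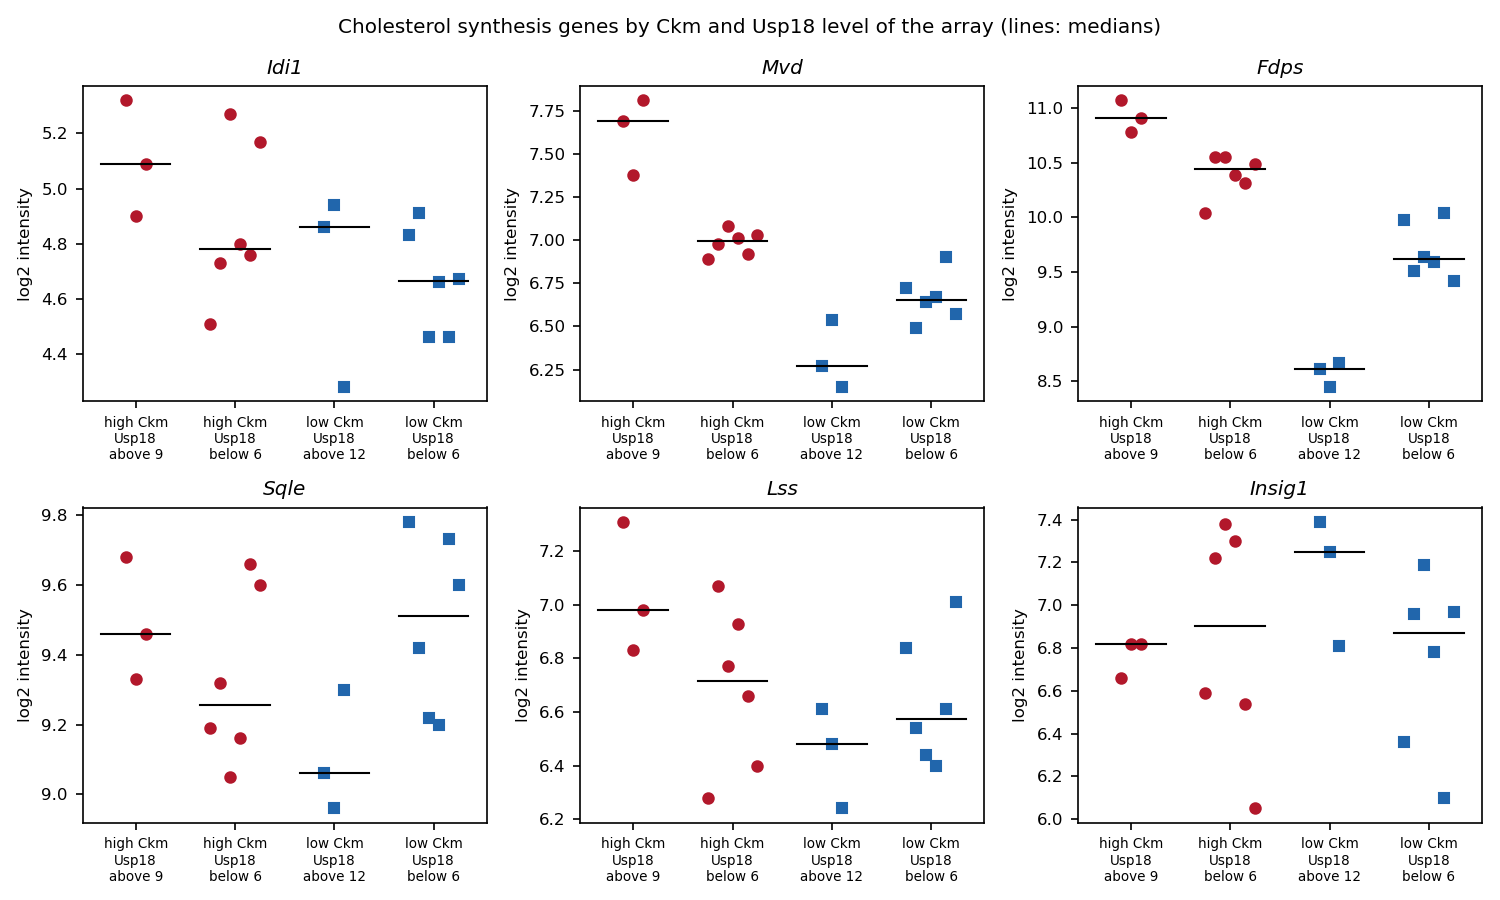
Log2 intensity of 6 cholesterol genes (vertical axes) on the 18 arrays, split by Ckm (high, red circles; low, blue squares) and by Usp18 level of the array; black lines are medians. Fdps and Mvd have their highest median on the 3 high-Ckm arrays with Usp18 above 9 and their lowest on the 3 low-Ckm arrays with Usp18 above 12. The ranges of the Insig1 probe shown, the brightest, overlap throughout.

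Mvd decarboxylates mevalonate diphosphate to give isopentenyl diphosphate. Its probe read 7.08, 7.01 and 6.92 log2 intensity on the KO day 3 arrays, against 6.89, 6.27 and 6.54 on the KO day 0 arrays. The OE arrays read 7.03, 6.90 and 6.57 at day 3, against 6.64, 7.38 and 6.67 at day 0. In the Wt groups it read 7.81, 6.15 and 6.98 at day 3, against 7.69, 6.72 and 6.49 at day 0. The 2 highest Wt arrays were both high in Ckm and in Usp18, and the lowest, Wt day 3 replicate 2, was low in Ckm and had the highest Usp18. By Ckm level, Mvd ranged from 6.89 to 7.81 with a median of 7.03 on the high arrays, against 6.15 to 6.9 with a median of 6.57 on the low arrays, a difference of 0.46.

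Idi1 interconverts isopentenyl diphosphate and dimethylallyl diphosphate. Its single probe lay close to background, with a raw signal of 94.69 to 130.3 intensity units, and was detected on 13 of 18 arrays (3 of 3 KO day 3, 2 of 3 KO day 0, 2 of 3 OE day 3, 1 of 3 OE day 0, 2 of 3 Wt day 3 and 3 of 3 Wt day 0). Its range was 4.51 to 5.32 log2 intensity on high-Ckm arrays (median 4.9), against 4.28 to 4.94 on low-Ckm arrays (median 4.67). The difference of medians was 0.23, and on 5 arrays the probe was not well above background.

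Fdps joins isoprenoid units into farnesyl diphosphate, the branch point between sterols and the prenylated products, and it showed the widest spread of the 6 genes. It read 10.55, 10.39 and 10.31 on the KO day 3 arrays, against 10.04, 8.61 and 8.45 on the KO day 0 arrays. On the OE arrays it read 10.49, 10.04 and 9.42 at day 3, against 9.64, 10.78 and 9.59 at day 0. On the Wt arrays it read 10.91, 8.67 and 10.55 at day 3, against 11.07, 9.98 and 9.51 at day 0. The 3 lowest arrays were the 3 with low Ckm and Usp18 above 12, and the 3 highest were the 3 with high Ckm and Usp18 above 9. High-Ckm arrays ranged from 10.04 to 11.07 (median 10.55), against 8.45 to 10.04 on low-Ckm arrays (median 9.51), a 2.05-fold ratio of medians. That difference stood at percentile 92.5 among all genes tested. A second Fdps probe lay close to background (99.17 to 131.2 intensity units) and was detected on 12 arrays, none of them KO day 0. Its medians were 5.05 on high-Ckm arrays and 4.55 on low-Ckm arrays, with overlap (4.63 to 5.4, against 4.41 to 5.14). So close to background, it does not check the first.

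Sqle oxidises squalene and is a rate-limiting step of the sterol branch. Its brightest probe read 9.05, 9.16 and 9.66 on the KO day 3 arrays, against 9.19, 9.06 and 8.96 on the KO day 0 arrays. The OE arrays read 9.60, 9.73 and 9.60 at day 3, against 9.22, 9.33 and 9.20 at day 0, without overlap. The Wt arrays read 9.46, 9.30 and 9.32 at day 3, against 9.68, 9.78 and 9.42 at day 0. By this probe Sqle hardly differed by Ckm level, with medians of 9.33 on the high arrays and 9.3 on the low arrays. A second probe, detected on all 18 arrays, read 7.15 and 6.93 as medians of high-Ckm and low-Ckm arrays, a difference of 0.22. Its ranges overlapped (6.9 to 7.7, against 6.56 to 7.57).

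Lss closes the ring to lanosterol. Its brightest probe had a median of 6.83 on high-Ckm arrays (6.28 to 7.31), against 6.54 on low-Ckm arrays (6.24 to 7.01), and the groups overlapped. A second probe, near background and detected on 10 arrays, differed by -0.04 between the medians and, so close to background, does not check the first. Insig1, the sterol-sensing brake, had a median of 6.82 on high-Ckm arrays (6.05 to 7.38), against 6.96 on low-Ckm arrays (6.1 to 7.39). Its 3 detected probes gave differences of -0.14, 0.24 and 0.05, and so had no shared direction between the Ckm levels.

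The labelled comparisons were tested with limma over all 11921 genes. In all 7 comparisons and in both tests of whether KO or OE changed the day difference, 0 genes passed an adjusted p of 0.05 (0% of all genes), and none of the 6 cholesterol genes did. Unadjusted p fell below 0.05 for between 273 and 992 genes per comparison. Fdps averaged 9.04 ± 0.88 in KO and 10.19 ± 0.8 in Wt at day 0 (SD, n = 3 each; difference -1.15 ± 0.58 SE, limma adjusted p = 0.8). Beside it, the interferon-induced Usp18 read 12.41 and 12.4 on the KO arrays with Fdps at 8.61 and 8.45. It read 4.48 on the other KO array, with Fdps at 10.04. Ckm split these KO arrays the same way (8.05 and 8.02, against 11.25), so Usp18 and muscle state cannot be told apart there. In Wt at day 0, replicate 1 had the highest Usp18 (9.94) and the highest Fdps (11.07), with Ckm at 11.11. The part of Usp18 or of muscle state in the difference was not tested. Sqle averaged 9.07 ± 0.12 in KO and 9.62 ± 0.18 in Wt at day 0 (SD, n = 3 each; difference -0.56 ± 0.16, adjusted p = 0.644), and its 3 KO arrays lay below its 3 Wt arrays. Of the 6 genes, 1 separated in this direction, beside 5.75% of all genes lower and 4.57% higher. With array weights both passed, at an adjusted p of 0.0166 for Fdps and 0.0122 for Sqle; over all alternatives the adjusted p ranged from 0.00493 to 1 for Fdps and from 0.0122 to 1 for Sqle. With array weights 1055 of all 11921 genes passed in this comparison. In the same comparison, in the main setting, 5 of the 6 were lower, with a median of -0.42, against -0.02 for all genes, of which 6245 of 11921 were lower. OE against Wt at day 0, which has the same Wt arrays, also had 5 of the 6 lower. The median there was -0.26, and 6365 of 11921 genes were lower.

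**Figure D2:**
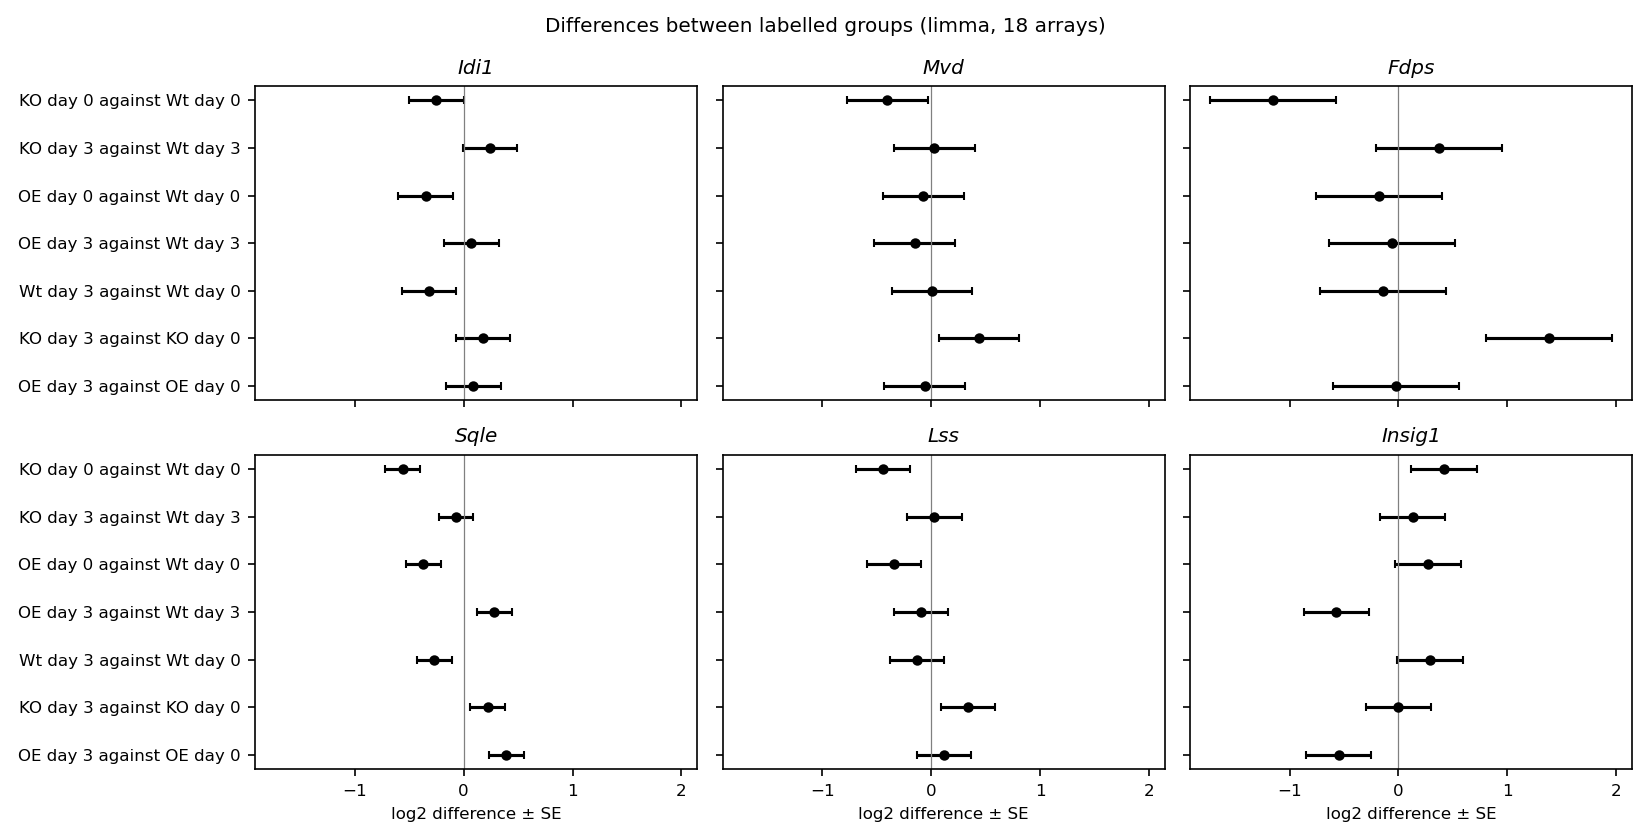
Log2 differences (horizontal axis, first-named group minus second) with SE bars for 6 cholesterol genes in 7 labelled comparisons, fitted with limma on 18 arrays. The largest are -1.15 for Fdps in KO against Wt at day 0 and 1.38 for Fdps in KO day 3 against KO day 0, each with an SE of 0.58.

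At day 3 Fdps averaged 10.42 ± 0.12 in KO and 10.04 ± 1.21 in Wt (SD, n = 3 each; difference 0.37 ± 0.58, limma adjusted p = 0.945), and all 6 genes overlapped, beside 4.82% of all genes wholly higher and 4.19% wholly lower. OE against Wt at day 0 gave Sqle at 9.25 ± 0.07 against 9.62 ± 0.18 (SD, n = 3 each; difference -0.37 ± 0.16, adjusted p = 0.953), and 1 of 6 genes lay wholly lower, beside 6.12% of all genes lower and 4.87% higher. The KO and OE comparisons share the Wt arrays of their day. At day 3 Sqle stood at 9.64 ± 0.07 in OE and 9.36 ± 0.08 in Wt (SD, n = 3 each; difference 0.28 ± 0.16, adjusted p = 0.915), wholly higher beside 3.15% of all genes higher and 2.41% lower, and the other 5 overlapped. Insig1 averaged 6.37 ± 0.51 in OE and 6.95 ± 0.23 in Wt at day 3 (difference -0.57 ± 0.3, limma adjusted p = 0.915).

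Between days, the widest of the differences was in KO cells, where Fdps averaged 10.42 ± 0.12 at day 3 and 9.04 ± 0.88 at day 0 (SD, n = 3 each; difference 1.38 ± 0.58, limma adjusted p = 0.488). Fdps, Lss and Mvd, 3 of the 6, lay wholly higher at day 3, beside 9.38% of all genes higher and 7.8% lower. The KO day 3 arrays were all high in Ckm, whereas 2 of the 3 KO day 0 arrays were low, and with Ckm level as a block the Fdps difference was 0.47 (adjusted p = 0.999). OE cells gave 0.39 ± 0.16 for Sqle (9.64 ± 0.07 at day 3, 9.25 ± 0.07 at day 0; adjusted p = 1), wholly higher beside 6.02% of all genes higher and 4.63% lower. In Wt cells all 6 overlapped between days, beside 2.97% of all genes wholly higher and 4% wholly lower. Fdps averaged 10.04 ± 1.21 in Wt at day 3 and 10.19 ± 0.8 at day 0 (SD, n = 3 each; difference -0.14 ± 0.58, limma adjusted p = 0.966). Without the 6 arrays whose Ckm went against their day, a choice that favours genes following Ckm, the difference was 0.99 (limma adjusted p = 0.00236, range over alternatives 0.00236 to 1).

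**Figure D3:**
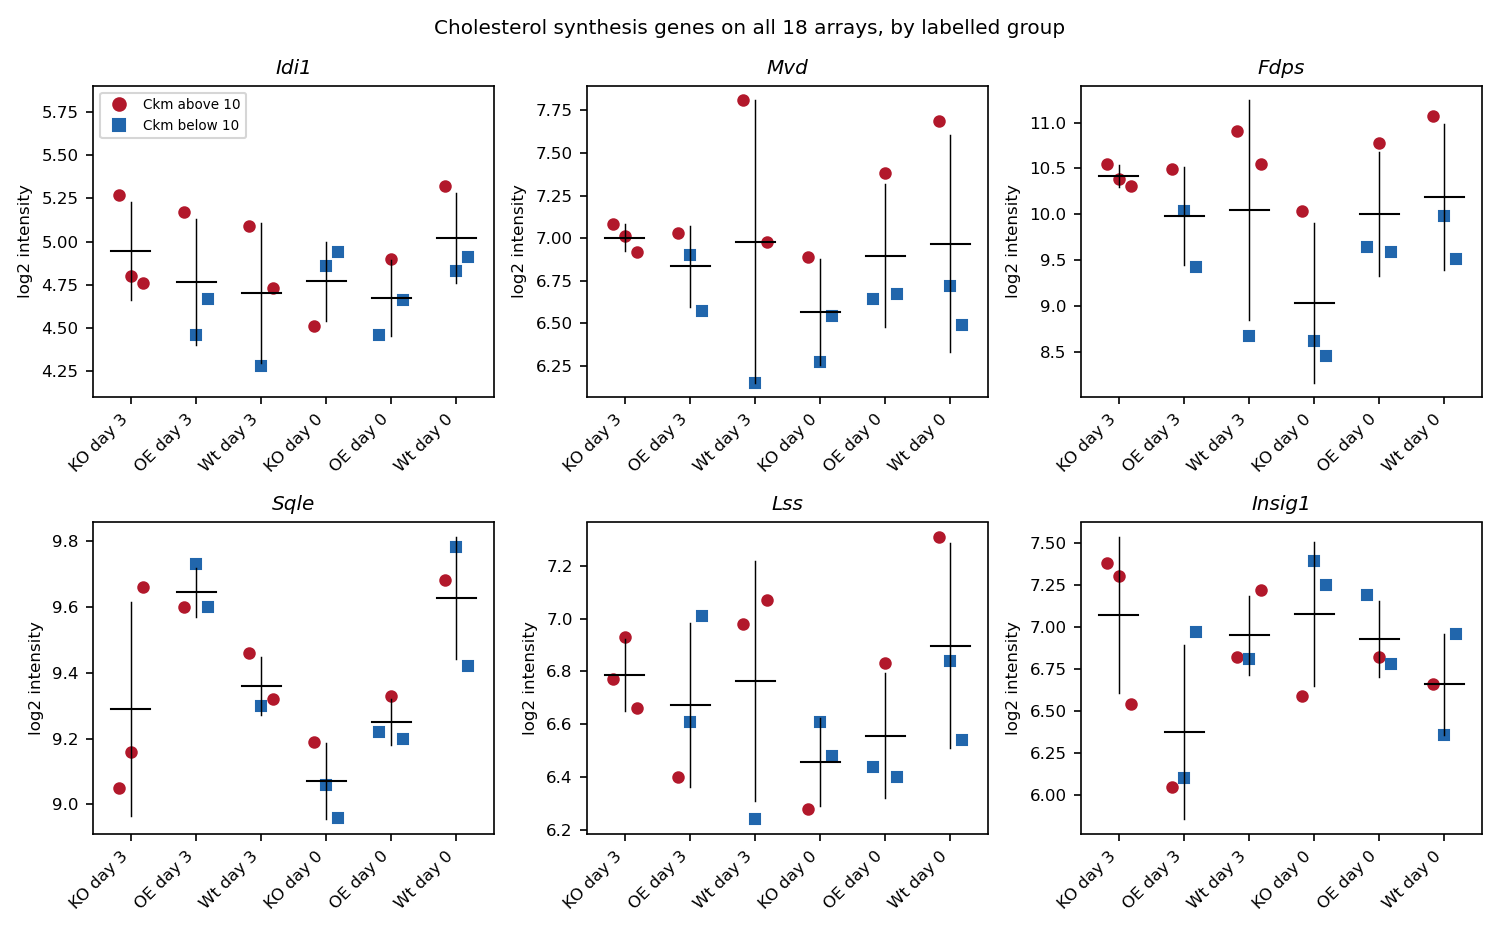
Log2 intensity of 6 cholesterol genes by labelled group, with 1 point per array, coloured by whether Ckm is above or below log2 10; bars give the mean and lines the SD (n = 3). In each of the 5 groups that hold both kinds of array, the high-Ckm arrays lie above the low-Ckm arrays for Fdps and Mvd.

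By labelled mean, Fdps was lowest in KO day 0 (9.04) and highest in KO day 3 (10.42), and the 4 groups between, from 9.99 to 10.19, differed by less than their SDs of 0.54 to 1.21. Sqle ran from 9.07 in KO day 0 through OE day 0, KO day 3 and Wt day 3 to 9.62 in Wt day 0 and 9.64 in OE day 3. Mvd ran from 6.56 in KO day 0 to 7 in KO day 3, Lss from 6.45 in KO day 0 to 6.9 in Wt day 0, Idi1 from 4.67 in OE day 0 to 5.02 in Wt day 0 and Insig1 from 6.37 in OE day 3 to 7.08 in both KO groups. Neighbouring groups in each of these orders differed by less than the SD of at least 1 of the pair, with 3 exceptions: KO day 0 and OE day 3 for Fdps, KO day 0 and OE day 0 for Sqle, and Wt day 3 and Wt day 0 for Sqle.

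Each group of arrays with high Usp18 is a single set of mutually closest arrays, so a difference by Usp18 may belong to the set. Among arrays with low Ckm, Fdps was 8.45 to 8.67 on the 3 with Usp18 above 12, against 9.42 to 10.04 on the 6 with Usp18 below 6. Of all genes, 7.17% lay wholly lower there and 9.5% wholly higher. Among arrays with high Ckm, the direction was the opposite: Fdps was 10.78 to 11.07 on the 3 with Usp18 above 9, against 10.04 to 10.55 on the 6 below 6, and Mvd was 7.38 to 7.81 against 6.89 to 7.08, beside 12% of all genes wholly higher and 12.4% wholly lower. Mvd in the low-Ckm arrays read 6.15 to 6.54 against 6.49 to 6.9. The 3 detected Insig1 probes had higher medians with high Usp18 on low-Ckm arrays (7.25, 5.81 and 5.85, against 6.87, 5.51 and 5.45). The last of them lay wholly higher there (5.74 to 6.12, against 5.25 to 5.64). On high-Ckm arrays all 3 probes had lower medians with high Usp18 (6.82, 5.75 and 5.35, against 6.91, 6.04 and 6.05) and overlapped. Of the 6 genes, 2 had the higher median with high Usp18 in the low-Ckm split, beside 49% of all genes, and 5 in the high-Ckm split, beside 50%. Endothelial markers were mixed on the high-Ckm arrays: with Usp18 above 9, against below 6, Tek (6.89 to 7.4, against 4.58 to 5.01) and Egfl7 (7.65 to 7.88, against 7.03 to 7.33) lay wholly higher, Vwf wholly lower (5.06 to 5.53, against 6.17 to 6.7), and Pecam1 and Kdr overlapped, with a list median of 0.05. All 5 overlapped in the low-Ckm split, and their part in the cholesterol genes was not tested.

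Of 14 other enzymes of the pathway listed for this description, 11 were measured, and 0 of the 11 passed limma's adjusted threshold in any of the 7 labelled comparisons. On high-Ckm against low-Ckm arrays, 3 lay wholly higher and 1 wholly lower: the lanosterol demethylase Cyp51 (7.97 to 8.82, against 6.68 to 7.55), the last-step reductase Dhcr7 (7.04 to 7.66, against 5.73 to 6.35), the sterol isomerase Ebp (9.29 to 9.91, against 8.37 to 8.78) and, in the other direction, the nuclear envelope protein and sterol reductase Lbr (7.99 to 8.43, against 9.4 to 10.08). The other 7 overlapped. Of all genes, 10.2% lay wholly higher on the high-Ckm arrays and 9.95% wholly lower. In KO against Wt at day 0, 2 of the 11 had an unadjusted p below 0.05, beside 6.4% of all genes: Nsdhl (6.44 ± 0.26 against 6.98 ± 0.14, limma adjusted p = 0.773) and Hsd17b7 (7.43 ± 0.28 against 8.32 ± 0.53, limma adjusted p = 0.735). Nsdhl and Hsd17b7, both of the sterol demethylation steps, were chosen after their values were seen. Hsd17b7 followed the Usp18 pattern of Fdps. With high against low Usp18 it read 7.26 to 7.42 against 7.95 to 8.99 on low-Ckm arrays. On high-Ckm arrays it read 8.75 to 8.93 against 7.6 to 8.13. The 11 enzymes were mixed in the low-Ckm split: 3 lay wholly lower (Mvk, Nsdhl and Hsd17b7) and 1 wholly higher (Tm7sf2). The list median was 0.1, and 7.17% of all genes lay wholly lower and 9.5% wholly higher. In the high-Ckm split 2 lay wholly higher and 0 wholly lower, beside 12% and 12.4% of all genes.

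**Figure D4:**
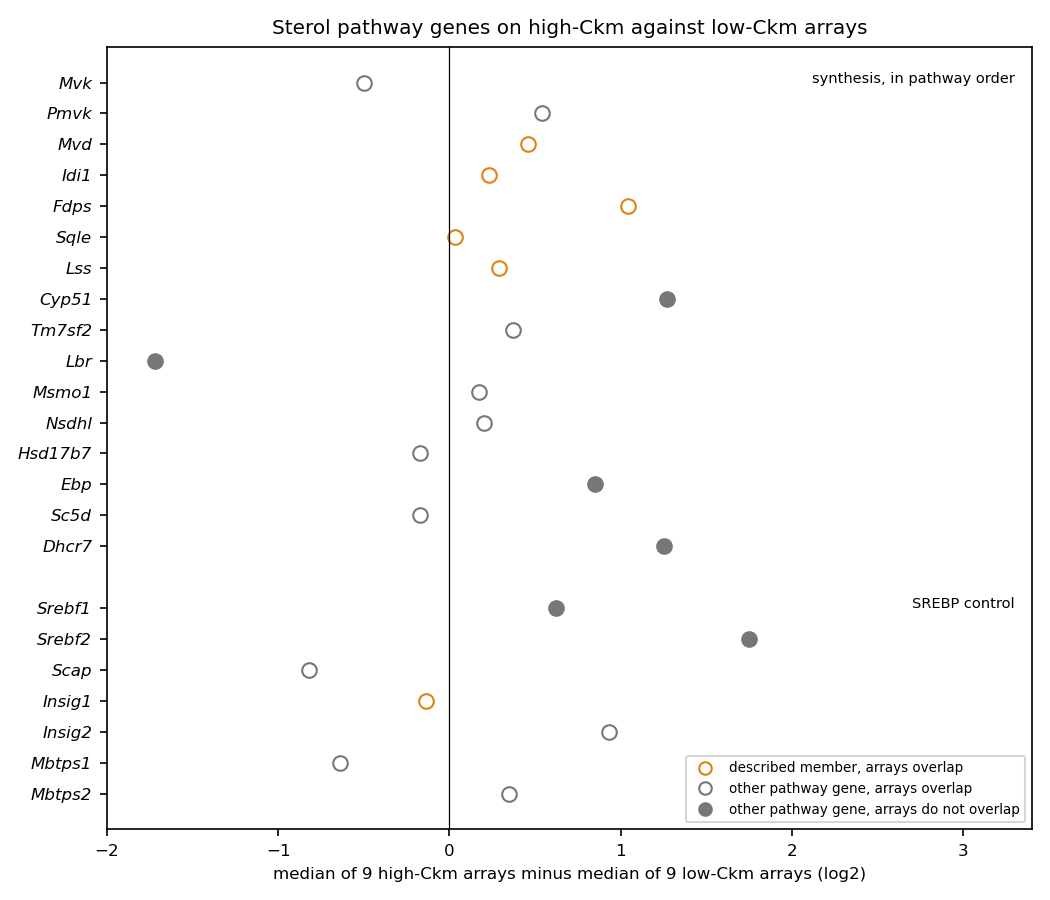
Difference of medians between 9 high-Ckm and 9 low-Ckm arrays (horizontal axis, log2) for the measured synthesis enzymes in pathway order and the genes of SREBP control; filled points are genes whose arrays do not overlap, and orange marks the described genes. The orange points lie between -0.14 and 1.04, and Srebf2 at 1.75 and Lbr at -1.72 are the most distant.

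Among the 6 SREBP regulators measured, Srebf1 (5.43 to 6.14 on high-Ckm arrays, against 4.39 to 5.41) and Srebf2 (7.49 to 8.68, against 5.62 to 6.3) lay wholly higher, beside 10.2% of all genes. A second Srebf2 probe overlapped, at 6.44 to 7.26 against 5.96 to 6.68. On low-Ckm arrays that second probe read 5.96 to 6.18 with Usp18 above 12, against 6.42 to 6.68 with Usp18 below 6, the direction Fdps took there. The brighter probe overlapped in that split (5.73 to 6.15, against 5.62 to 6.3), and on high-Ckm arrays it ran opposite to Fdps, with medians of 7.61 with Usp18 above 9 and 8.21 with Usp18 below 6. Insig2, the other brake, had a median of 9.27 on high-Ckm arrays and 8.35 on low-Ckm arrays. Scap and Mbtps1 went the other way, with medians of 6.71 and 6.64 on high-Ckm arrays, against 7.53 and 7.28. Insig2, Scap and Mbtps1 all overlapped between the Ckm levels. Of 9 uptake and trafficking genes 6 were measured, and all overlapped, with a median difference of -0.45. Of 10 fatty acid targets of SREBP 8 were measured. Of these, 4 lay wholly higher and 1 wholly lower, beside 10.2% of all genes wholly higher and 9.95% wholly lower. Among the 4 was the desaturase Scd1 (8.8 to 10.13, against 6.12 to 7.14), and the 1 was the desaturase Fads1 (8.94 to 9.41, against 10.64 to 11.01). Of 8 genes in a cholesterol efflux list 5 were measured, and all overlapped between the Ckm levels, with a median difference of 0.25. Apoe (1.06) and Lpcat3 (0.91) differed most. In the low-Ckm split by Usp18, 1 of the 5 lay wholly higher and 0 wholly lower, beside 9.5% and 7.17% of all genes. It was Ch25h, which makes an oxysterol that holds back SREBP processing. Ch25h read 7.16 to 7.47 with Usp18 above 12, against 6.37 to 7.06 with Usp18 below 6. On high-Ckm arrays it overlapped, at 6.51 to 6.85 with Usp18 above 9, against 6.33 to 7.81 with Usp18 below 6, and its part in the cholesterol genes was not tested.

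Markers of other cell types were measured beside these differences. Of all genes, 10.2% lay wholly higher on high-Ckm than on low-Ckm arrays, and 9.95% wholly lower. On high-Ckm against low-Ckm arrays, 4 of 5 measured smooth muscle markers lay wholly higher (list means 9.85 to 10.18, against 8.66 to 8.99). These were Acta2, Tagln, Smtn and Des, while Myh11 and Cnn1 were detected on 0 arrays. The 4 moved with the contractile markers, so smooth muscle cells and the muscle state of the arrays cannot be told apart here. Fibroblast markers were mixed (list means 5.73 to 6.35, against 5.39 to 6.56). Of 6 fibroblast markers measured, Dcn lay wholly higher (7.69 to 8.79, against 5.34 to 7.59), as did Dpt, which was detected on 9 arrays only. The other 4 overlapped with lower medians, among them Col15a1 (4.31 to 5.16, against 4.71 to 5.62), and the list median was -0.58. Of 8 adipocyte markers 2 were measured, and Plin1, Fabp4, Cidec and Retn were detected on 0 arrays. Of 8 macrophage markers 3 were measured, with Ptprc and C1qb detected on 0 arrays, and the 5 endothelial markers measured of 8 all overlapped. The part of these in the cholesterol genes was not tested.

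The genes most like the 6 were ranked by Pearson correlation with their mean over the 18 arrays, after the means of the high-Ckm and of the low-Ckm arrays were removed. Polr3k, a subunit of RNA polymerase III, had 0.9, Gtf3a, the factor for 5S ribosomal RNA genes, 0.84, Wdr3 and Adcy6 0.83 each, Rnaseh2b 0.82, Adsl 0.81, and Dmac2, Hddc2, Cxcl12 and Cers4 0.8 each. The members themselves had correlations with the mean of the other 5 of 0.77 for Lss, 0.68 for Mvd, 0.49 for Fdps, 0.37 for Idi1, 0.22 for Sqle and -0.33 for Insig1. The 11 other enzymes measured were spread from 0.6 to -0.18: Mvk had 0.6, Hsd17b7 0.57, Nsdhl 0.55, Pmvk 0.29, Msmo1 0.27, Ebp 0.24, Lbr 0.17, Dhcr7 0.13, Sc5d 0.03, Tm7sf2 -0.02 and Cyp51 -0.18. Srebf1 had 0.39 and Srebf2 -0.03. The arrays fall into 6 sets, so that the 18 points are not independent.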

How the data were processed

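The deposited main table gives, per the file headers, the intensity of 45281 probes, averaged over beads, with a detection p-value, on each of 18 arrays, linear and with no background subtracted. The authors also deposited processed intensity values, for which no normalisation is stated in the labels or headers. Total RNA was labelled with biotin, per the labels. Background was corrected and arrays were quantile normalised with neqc of limma 3.58.1 in R 4.3.3 (offset 16), which returns log2 values. The 22365 probes detected (p below 0.05) on at least 3 arrays were kept, and the probe with the highest mean stood for each of 11921 genes. Symbols came from the platform annotation (34885 probes with 1 symbol, 18 with several, 10378 with none), 34807 of them updated through Entrez identifiers against RefSeq, assembly GRCm38.p6. Between 16974 and 19966 probes were detected per array, and the number of arrays limits the precision.

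The limma model had 1 mean for each labelled group over the 18 arrays and left 12 residual degrees of freedom, with Benjamini-Hochberg adjustment over all genes of each comparison and a threshold of 0.05. The cholesterol genes and all gene lists were chosen with earlier results of these data known. Genes named are the cholesterol genes, up to 4 per list with the largest difference between high-Ckm and low-Ckm arrays (Ckm above or below log2 10), Srebf1, Srebf2, the array descriptors and the 10 genes most like the mean of the measured members. Beyond this rule, all measured enzymes are named for their likeness, endothelial and fibroblast markers and markers not detected are named to describe their lists, and Nsdhl and Hsd17b7 were chosen after their values were seen. The fit was tested on simulated data of 11921 genes modelled on KO and Wt at day 0. There it recovered 48 of 100 genes changed by a log2 of 1 and 87 of 100 changed by 2, with 10 false calls. These shares do not give the power for a single gene with a wide spread. In that comparison the Fdps difference of -1.15 had an SE of 0.58 and a limma adjusted p of 0.8. The titles give replicate numbers and state no pairing. In KO against Wt at day 0 the deviations of same-numbered arrays correlated at 0.61, 0.37 and 0.52. There replicate 1 was high in Ckm in both groups (11.25 and 11.11) and replicates 2 and 3 were low. Pairing and muscle state therefore cannot be told apart. In the other 6 comparisons at least 1 of the 3 pairs was not above 0.1. Alternatives changed the background correction, the normalisation, the detection filter or the probe choice, used the authors' processed values or array weights, blocked on replicate number, fitted the compared groups alone or left out each array. Added after seeing the data were leaving out the 6 arrays whose Ckm went against their day, and Ckm level as a block.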

Additional observations from a re-analysis of the deposited data

Results flagged for a closer look

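The OE against Wt difference of Sqle had opposite signs at day 3 and day 0, but the change between days did not pass the adjusted threshold. In that contrast 0 of 11921 genes passed, and the OE and Wt groups were mixed in Ckm. OE against Wt was 0.28 at day 3 and -0.37 at day 0, a difference of 0.66 ± 0.23 (SE) by limma's interaction contrast, with an unadjusted p of 0.012 and an adjusted p of 0.797 over all genes. All 3 OE arrays lay above all 3 Wt arrays at day 3 (9.60 to 9.73, against 9.30 to 9.46) and below them at day 0 (9.20 to 9.33, against 9.42 to 9.78). A second Sqle probe was also lower in OE at day 0 (6.72 to 6.91, against 7.24 to 7.7) and overlapped at day 3 (7.2 to 7.41, against 6.9 to 7.31).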

How the results depend on the processing

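No labelled comparison had a called gene among the cholesterol genes in the main setting, and most alternatives left this so. With array weights, of 11921 genes tested, 1055 passed in KO against Wt at day 0 and 961 in OE against Wt at day 0. Between days, 663 passed in Wt and 6266 in KO. The cholesterol genes among them were 2 of 6 in KO against Wt at day 0 (Fdps -1.27, Sqle -0.61). In KO day 3 against day 0 they were 3 of 6 (Fdps, Lss and Mvd), beside the 6266 of 11921 genes. The cause of the larger counts was not tested. Leaving out each array gave 0 to 10 genes for KO against Wt at day 0, the 10 without KO day 0 replicate 1, and 0 in the other comparisons. Without the 6 arrays whose Ckm went against their day, the counts were 554 for KO against Wt at day 0, 464 for OE against Wt at day 0, 4098 for Wt day 3 against day 0, 4680 for KO and 3130 for OE day 3 against day 0, with 1, 0, 2, 2 and 1 cholesterol genes. These counts are also of 11921 genes tested and of 6 cholesterol genes. Without those arrays OE day 3 has 1 array, assumed to vary like the other groups. Fdps then turned to 0.99 (adjusted p 0.00236) in Wt and 0.87 (adjusted p 0.0203) in OE for day 3 against day 0. Those arrays were left out by Ckm, so that day differences of genes that follow Ckm are partly fixed by the choice. The replicate block changed no call (0 genes in all 7 comparisons). Of 756 recomputed differences of the cholesterol genes, 70 changed sign, the largest of them 0.44 in the main setting, and 11 passed the threshold. Limits are 3 arrays per group, Idi1 near background, and Insig1 probes without a shared direction between high-Ckm and low-Ckm arrays.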
